A study of Homo sapiens with 8 samples.

Results

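Hyaluronan is a long sugar polymer of the cell surface and the extracellular matrix, and 6 genes that make, cut or bind it were followed in HCT116 cells, an established line from a human colorectal carcinoma. They are the synthases HAS2 and HAS3, the hyaluronidases HYAL2 and HYAL3, the receptor CD44, and CEMIP, which binds hyaluronan and promotes its breakdown. They were taken by gene name from a table of 58735 genes. HAS3 was included because it had one of the largest increases in cells depleted of MAPKAPK2, so its levels in those cells are given as a description and without a test. RNA sequencing covered 8 libraries, 2 in each of 4 groups, and all groups carried an shRNA, a short hairpin RNA that silences a gene. The 2 control groups carried a control shRNA and were kept for 24 h in DMEM with 20 mM or without (0 mM) glucose. The other groups carried shRNA 1 or shRNA 2 against MAPKAPK2 (MK2, a protein kinase of p38 stress signalling) at 20 mM glucose, and how long they were kept is not stated in the labels. The labels do not say whether the libraries of a group came from separate cultures, whether the cells were clones, or which promoter drove the shRNAs, so a p-value here reflects the spread among these libraries alone. In bulk RNA, a change in the number of cells that use a gene and a change in RNA per cell cannot be told apart.

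Hyaluronan synthases sit in the plasma membrane, join glucuronic acid and N-acetylglucosamine from their UDP sugars, and push the growing chain out of the cell. The chain is bound by CD44, a transmembrane glycoprotein that ties it to the ERM proteins (ezrin, radixin, moesin) and the actin cortex, and it is cut by hyaluronidases and by the CEMIP proteins into fragments that are taken up and digested in lysosomes. In the colon CD44 is known as a surface marker of crypt base cells and of tumour cells with stem cell traits, and as a Wnt target.

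MAPKAPK2 itself had 16.2 to 18.9 FPKM in the 4 control libraries, 2.54 to 2.77 with shRNA 1 and 0.800 to 0.982 with shRNA 2, which is 16.3% and 5.46% of the 20 mM control mean. FPKM, the count of fragments scaled to exon length and library size, is a level per gene length. The libraries held 14252316 to 19975449 reads in genes. Of 8 epithelial marker genes 7 were at 1 FPKM or more in every library, and VIL1 was at most 0.0614 FPKM. Of 13 markers of other cell types 12 stayed below 1 FPKM in every library, with DCN and LUM at 0 reads. The exception was COL1A1, at 3.84 to 6.72 FPKM. The summed level of the epithelial list was 1617 to 1650 FPKM in the 20 mM control, 1865 to 1896 at 0 mM, 1490 to 1694 with shRNA 1 and 1286 to 1658 with shRNA 2. That of the other list was 6.88 to 7.91, 6.51 to 7.21, 4.16 to 4.60 and 4.45 to 5.12 FPKM in the same order. With shRNA 2 KRT8, KRT18, EPCAM and CDH1 fell, while with shRNA 1 CDH1 rose, and COL1A1 fell with both. The part of these shifts in the results below was not tested.

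The members with the largest ratio to control were HAS3 with shRNA 2 and CEMIP with shRNA 1, and the letters just before their RefSeq transcript starts are shown for that reason. The windows come from RefSeq on GRCh38.p14 and end at the base before the start or, for CEMIP, before the first exon base of GENCODE 29. The HAS3 stretch is chr16:69107290-69107539 on the plus strand, inside the annotated gene and outside its annotated exons. The CEMIP stretch is chr15:80779120-80779342 on the plus strand. Capitals mark matches to the motifs searched.
HAS3 upstream: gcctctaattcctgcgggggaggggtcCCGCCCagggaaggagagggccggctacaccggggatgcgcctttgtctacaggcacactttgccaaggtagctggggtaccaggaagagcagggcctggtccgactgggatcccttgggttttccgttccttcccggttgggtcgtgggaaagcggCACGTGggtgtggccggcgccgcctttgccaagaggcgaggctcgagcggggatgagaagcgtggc
CEMIP upstream: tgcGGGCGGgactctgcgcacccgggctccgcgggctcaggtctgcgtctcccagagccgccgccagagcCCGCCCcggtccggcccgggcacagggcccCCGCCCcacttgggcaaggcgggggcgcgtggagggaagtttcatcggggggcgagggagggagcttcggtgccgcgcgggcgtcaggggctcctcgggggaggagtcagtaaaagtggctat
The search covered 5 motifs on both strands: the AP-1 site TGANTCA, the TEAD site GGAATG, the E-box CACGTG, the Sp1 box GGGCGG and the TATA box TATAAA, and no matches overlapped. HAS3 held 1 E-box, which 6.35% of 35116 RefSeq promoters hold in the same 250 bases, and 1 Sp1 box, which 42.6% hold. CEMIP held 3 Sp1 boxes, and 39.3% of promoters hold at least 1 in the same 223 bases. The AP-1, TEAD and TATA letters were in neither window. These are matches of letters only.

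HAS3 (ENSG00000103044, GRCh38 chromosome 16, 69105564 to 69118719, plus strand) encodes a synthase that makes hyaluronan at the cell surface. Its level was 10.96 and 9.12 FPKM in the 20 mM control libraries, 9.66 and 10.9 at 0 mM glucose, 28.4 and 30.1 with shRNA 1, and 83.9 and 79.2 with shRNA 2. The 4 control libraries lay together, both shRNA 1 libraries lay above all of them, and both shRNA 2 libraries lay above the shRNA 1 libraries. The group means were 10.04 ± 1.30, 10.3 ± 0.876, 29.3 ± 1.21 and 81.6 ± 3.37 FPKM (SD, n = 2 each), so the mean with shRNA 1 was 2.91 times and that with shRNA 2 8.12 times the 20 mM control. Among 16239 genes tested, the HAS3 difference from control had rank 3 from the top with shRNA 2 and rank 131 with shRNA 1. These values rest on 859 to 8408 reads per library.

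The rule for including HAS3 did not use the cells without glucose, and that comparison was tested with limma on log2(FPKM + 1), a scale that understates changes of low levels, and called at a Benjamini-Hochberg adjusted p under 0.05. At 0 mM glucose HAS3 did not pass, with a log2 difference of 0.03 (SE 0.11, 95% interval -0.23 to 0.30, limma adjusted p = 0.965). Between the shRNAs the HAS3 level with shRNA 2 was above that with shRNA 1 by 1.45 on the log2 scale, given without a test because both levels belong to the values that chose the gene. MAPKAPK2 was lower with shRNA 2 than with shRNA 1 by a log2 difference of -0.95 (SE 0.09, limma adjusted p = 0.00124), beside the higher HAS3. A relation between these levels was not tested. The other tested members, CD44, CEMIP, HYAL2 and HYAL3, lay further from control with shRNA 1. Exons of CHTF8 on the opposite strand cover 6.90% of the HAS3 exon bases, and whether the counting used strand is not stated. CHTF8 was at 48.4 and 42.8 FPKM in the 20 mM control, 29.01 and 32.2 with shRNA 1 and 53.9 and 39.4 with shRNA 2. It was lower with shRNA 1 by a log2 difference of -0.56 (limma adjusted p = 0.0459), where HAS3 was above control. Between the shRNAs CHTF8 was higher with shRNA 2 by 0.58 (limma adjusted p = 0.0387), the same direction as HAS3. The part of this overlap in the HAS3 values was not tested.

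HAS2 (ENSG00000170961, GRCh38 chromosome 8, 121612116 to 121641390, minus strand), the synthase known for making long chains, was close to absent. Its libraries held 4 and 1 reads in the 20 mM control, 2 and 2 at 0 mM, and 0 in all 4 MAPKAPK2 shRNA libraries. The control values were 0.0134 to 0.0571 FPKM, and a count of 0 allows up to 3 reads, or 0.0378 to 0.0468 FPKM in the shRNA libraries. Summed over libraries this is 5 reads in the 20 mM control and 4 at 0 mM against 0 with either shRNA, a difference that was not tested. HAS1, the third synthase, was at 0 to 0.292 FPKM with at most 10 reads per library. HAS1 and HAS2 both failed the minimum level for a test, an FPKM of 1 in 2 libraries. HAS3 therefore made up 98.7% to 100% of the summed synthase FPKM in each library.

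**Figure D1:**
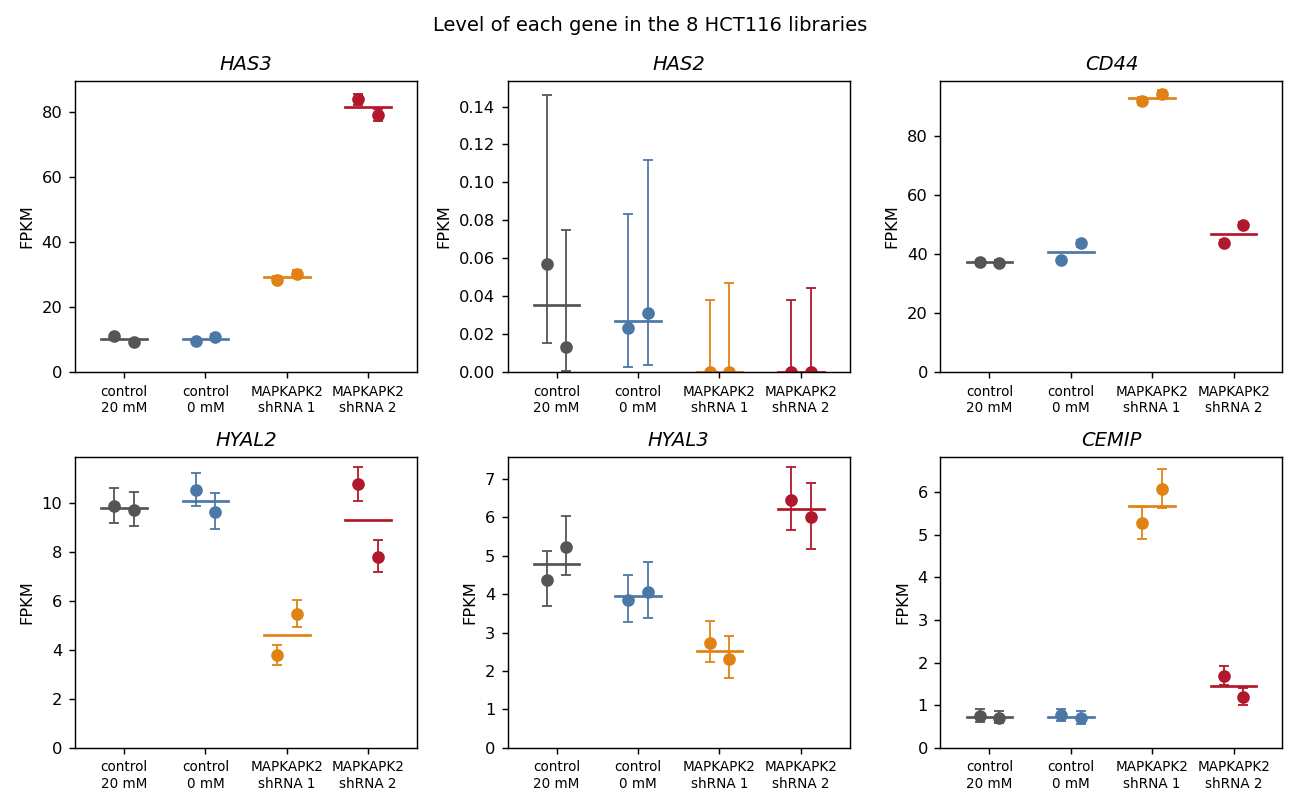
Level of each of the 6 genes in FPKM (y axis, a separate scale per gene, from 0) in the 8 libraries by group (x axis). Points are libraries with exact 95% Poisson intervals of their reads (counting error only, and for 0 reads the upper limit of 3 reads), and horizontal lines are group means of 2 libraries. HAS3 is highest with shRNA 2 (83.9 and 79.2 FPKM), CD44 and CEMIP are highest with shRNA 1, HYAL2 and HYAL3 are lowest with shRNA 1, and HAS2 stays below 0.06 FPKM.

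CD44 (ENSG00000026508, GRCh38 chromosome 11, 35138870 to 35232402, plus strand), the main hyaluronan receptor, rose with shRNA 1. Its level was 37.2 and 37.2 FPKM in the 20 mM control, 37.9 and 43.6 at 0 mM glucose, 91.9 and 94.2 with shRNA 1, and 43.9 and 49.8 with shRNA 2. Both shRNA 1 libraries were far above the rest, and the shRNA 2 libraries were above all 4 control libraries, the lower of them by little. The mean of 93.1 ± 1.63 FPKM with shRNA 1 was 2.50 times the 20 mM control mean of 37.18 ± 0.0135 (SD, n = 2 each), a log2 difference of 1.30 (SE 0.10, limma adjusted p = 0.000931).

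With shRNA 2 the CD44 log2 difference from control was 0.32 (95% interval 0.08 to 0.57) and did not pass (limma adjusted p = 0.0756). It passed in limma voom, run on whole reads calculated back from the FPKM (adjusted p = 0.0431) and without the first shRNA 2 library (adjusted p = 0.0466). Over all the other settings tried the adjusted p ranged up to 0.251. The difference between the shRNAs passed, with CD44 lower under shRNA 2 by a log2 difference of -0.98 (95% interval -1.22 to -0.73, limma adjusted p = 0.0016). For glucose withdrawal the CD44 difference was 0.13 (SE 0.10, limma adjusted p = 0.793). The antisense gene CD44-AS1 covers 0.840% of the CD44 exon bases and had 2.55 and 4.12 FPKM in the 20 mM control, 12.6 and 10.1 with shRNA 1 and 5.31 and 6.24 with shRNA 2. It moved in the order of CD44, with a log2 difference of 1.53 for shRNA 1 (limma adjusted p = 0.0034), and without strand reads of the pair cannot be told apart where they overlap. CD44 has 39 annotated transcripts, and the table holds 1 value for all of them.

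The synthase and the receptor followed a different order over the shRNAs. The ratio of HAS3 to CD44 FPKM was 0.295 and 0.245 in the 20 mM control, 0.255 and 0.250 at 0 mM, 0.309 and 0.320 with shRNA 1, and 1.91 and 1.59 with shRNA 2. HAS3 RNA was above CD44 RNA per exon length in the shRNA 2 libraries and below it in the other 6.

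**Figure D2:**
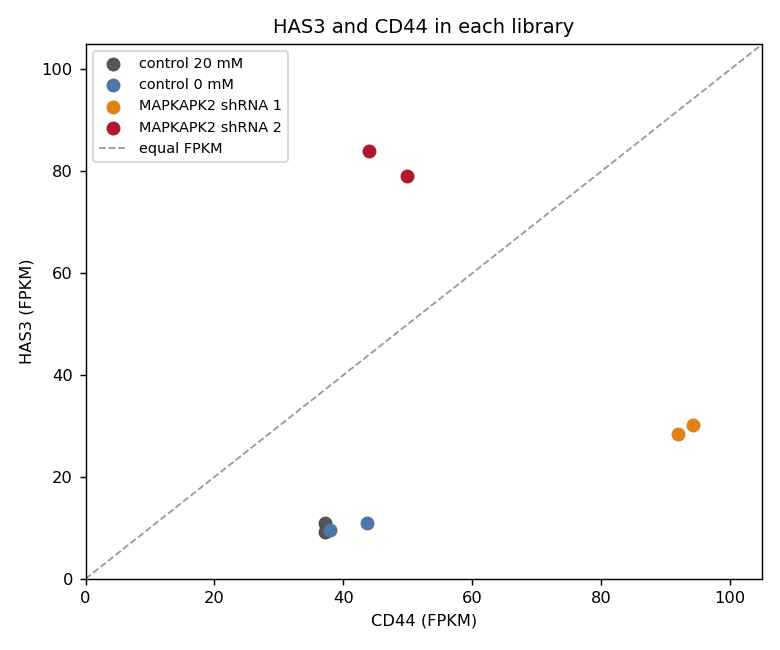
HAS3 (y axis) against CD44 (x axis), both in FPKM on linear axes from 0, with 1 point per library coloured by group and a dashed line where both are equal. The shRNA 2 libraries lie above the line with ratios of 1.91 and 1.59, the shRNA 1 libraries lie furthest to the right, and the 4 control libraries lie together at the lower left.

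CEMIP (ENSG00000103888, GRCh38 chromosome 15, 80779343 to 80951776, plus strand), whose protein takes part in hyaluronan depolymerization, had a mean ratio to control second to that of HAS3. Its level was 0.753 and 0.708 FPKM in the 20 mM control, 0.761 and 0.698 at 0 mM glucose, 5.27 and 6.07 with shRNA 1, and 1.68 and 1.198 with shRNA 2. All control libraries were under 1 FPKM, so CEMIP passed the minimum level only through the shRNA libraries, and its p-values are therefore taken from the limma fit with no minimum, over 35173 genes. The SEs and the interval given for CEMIP are from the fit with the minimum. The values rest on 82 to 756 reads. The shRNA 1 mean was 7.76 times the 20 mM control, a log2 difference of 1.94 (SE 0.16, limma adjusted p = 0.00458), and 2.94 in the voom fit to reads, which adds no constant of 1.

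With shRNA 2 the CEMIP mean was 1.97 times the control, and both libraries were above all 4 controls. The log2 difference of 0.49 did not pass (limma adjusted p = 0.169). In the fit with the minimum it did not pass either (limma adjusted p = 0.0740), with an unadjusted 95% interval of 0.12 to 0.86. With a smaller constant, log2(FPKM + 0.1), it was 0.87 and passed (limma adjusted p = 0.0498), and in the voom fit it was 0.97 (adjusted p = 0.00956). Both of these fits kept the minimum level, which CEMIP met only through the shRNA libraries. Over the settings that kept all 8 libraries or the 2 groups compared, the adjusted p for CEMIP ranged up to 0.189. CEMIP was lower with shRNA 2 than with shRNA 1 by a log2 difference of -1.45 (SE 0.16, limma adjusted p = 0.00695). Exons of MESD on the opposite strand cover 2.94% of the CEMIP exon bases. MESD was at 8.15 and 8.54 FPKM in the 20 mM control, 10.9 and 8.64 with shRNA 1 and 12.7 and 10.4 with shRNA 2, above CEMIP in every library, and passed in no comparison. CEMIP2, a membrane protein with a related role, was at 2.37 and 2.07 FPKM in the 20 mM control, 3.81 and 3.95 with shRNA 1 and 3.90 and 4.38 with shRNA 2. It rose with both, by 0.60 (SE 0.12, limma adjusted p = 0.0165) and 0.67 (SE 0.12, limma adjusted p = 0.0108). The shRNA 1 call was lost without any of the 4 libraries compared (adjusted p 0.0671 to 0.102), and the shRNA 2 call without either control library (0.0521 and 0.0772).

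HYAL2 (ENSG00000068001, GRCh38 chromosome 3, 50317790 to 50322906, minus strand) encodes a hyaluronidase anchored at the cell surface. Its level was 9.87 and 9.73 FPKM in the 20 mM control, 10.5 and 9.64 at 0 mM glucose, 3.77 and 5.47 with shRNA 1, and 10.8 and 7.80 with shRNA 2. The shRNA 1 libraries were below the other 6, and the shRNA 2 libraries lay on either side of the control. With shRNA 1 the mean was 0.472 times the control, a log2 difference of -0.96 (SE 0.18, limma adjusted p = 0.0142). This call was lost without the first control library (adjusted p = 0.0841), the second (0.0781) or the first shRNA 1 library (0.0807). With shRNA 2 the log2 difference was -0.08 (95% interval -0.52 to 0.35, limma adjusted p = 0.795), and it was -0.29 without the first and 0.12 without the second shRNA 2 library. The difference between the shRNAs was 0.87 (SE 0.18, limma adjusted p = 0.0173), which did not pass without the first shRNA 1 library (adjusted p = 0.0944), without the first shRNA 2 library (0.0594) or with only those 2 groups in the fit (0.0949).

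HYAL3 (ENSG00000186792, GRCh38 chromosome 3, 50292831 to 50299468, minus strand) is a paralogue in the same gene cluster. Its level was 4.36 and 5.23 FPKM in the 20 mM control, 3.86 and 4.06 at 0 mM glucose, 2.72 and 2.32 with shRNA 1, and 6.45 and 6.00 with shRNA 2. The shRNA 1 libraries were the lowest and the shRNA 2 libraries the highest, on 72 to 248 reads per library. With shRNA 1 the mean was 0.526 times the control, a log2 difference of -0.72 (SE 0.12, limma adjusted p = 0.0083). This call was lost without the second control library (adjusted p = 0.0624) or the second shRNA 1 library (0.0633). With shRNA 2 the difference of 0.32 (95% interval 0.04 to 0.60) did not pass (limma adjusted p = 0.105). Between the shRNAs it was 1.04 (SE 0.12, limma adjusted p = 0.00193), and the call held without each library in turn.

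Both hyaluronidase genes share exon bases with neighbours on their own strand, TUSC2 for 11.2% of HYAL2 and NAA80 for 12.2% of HYAL3. IFRD2, also on that strand, covers 2.12% of HYAL3. Its level was 34.25 to 45.49 FPKM, above HYAL3 in every library, and it passed in no comparison. TUSC2 was at 24.1 and 25.8 FPKM in the 20 mM control, 20.53 and 17.8 with shRNA 1 and 24.8 and 20.7 with shRNA 2. It was lowest with shRNA 1, like HYAL2, with a log2 difference of -0.37 from control that did not pass (limma adjusted p = 0.0727). NAA80 was at 4.54 and 4.26 FPKM in the 20 mM control, 2.74 and 2.84 with shRNA 1 and 6.81 and 4.74 with shRNA 2. It was lowest with shRNA 1, like HYAL3, with a log2 difference of -0.51 from control (limma adjusted p = 0.0565) and of 0.82 between the shRNAs (limma adjusted p = 0.0107). Reads in shared exons cannot be assigned to either gene of a pair. HYAL1 was at 1.43 to 3.52 FPKM and passed in no comparison, and HYAL4 and SPAM1 had 0 reads in all 8 libraries.

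CD44, HYAL2 and HYAL3 are the 3 tested members besides HAS3 and CEMIP. All members were chosen with earlier results of these data known, so their calls are set beside the shares over all genes as a description only. All 3 passed with shRNA 1, CD44 upward and the hyaluronidases downward, at a background of 19.8% of the 16239 genes (9.35% higher and 10.5% lower). With shRNA 2 none of the 3 passed, at a background of 18.8% (11.1% higher and 7.73% lower), and CD44 and HYAL3 had unadjusted 95% intervals that did not reach 0. Between the shRNAs all 3 passed, HYAL2 and HYAL3 higher with shRNA 2 and CD44 lower, at a background of 22.2% (13% higher and 9.13% lower). Glucose withdrawal gave no call for these or for HAS3 and CEMIP, and a background of 0% (0 of 16239 genes by limma, 1421 at an unadjusted p under 0.05, and 28 by the voom fit). The libraries of the groups compared did not overlap for these 3 genes with shRNA 1, for CD44 and HYAL3 with shRNA 2, for all 3 between the shRNAs and for CD44 and HYAL3 with glucose withdrawal. Over all genes that share was 65.7%, 57.4%, 60% and 41.3% in that order. All 3 comparisons with the 20 mM control use the same 2 control libraries.

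**Figure D3:**
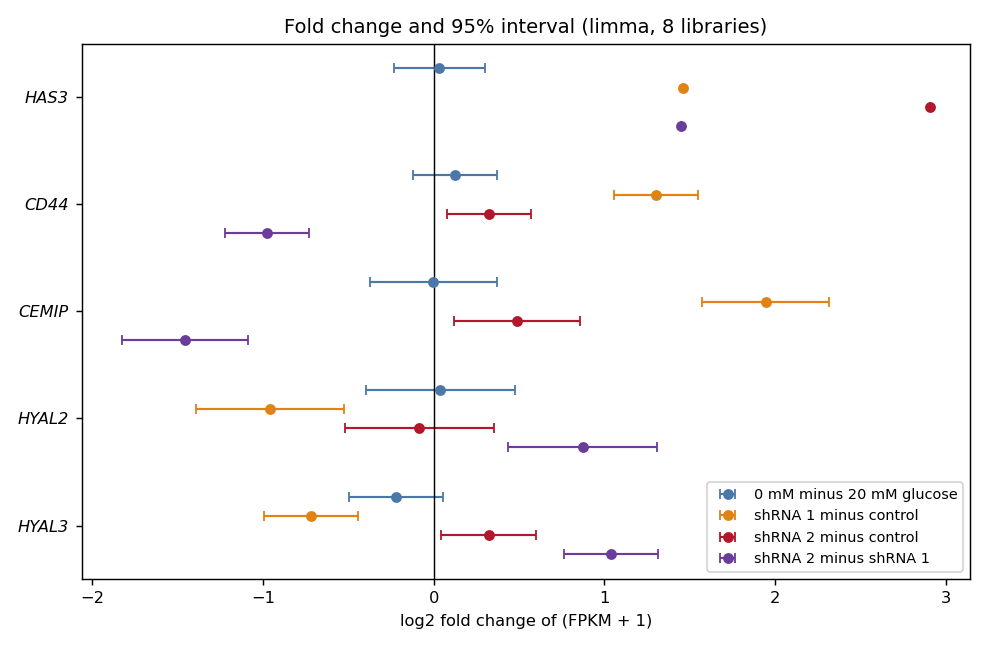
Log2 fold change of (FPKM + 1) (x axis) for the 5 genes that passed the minimum level (y axis), in 4 comparisons marked by colour, with 95% intervals from limma over 8 libraries. HAS3 in the comparisons with an shRNA is drawn without an interval because the gene was chosen on those levels. CEMIP met the minimum level only through the shRNA libraries, and its intervals are from the fit with that minimum. The glucose points lie near 0 for all 5 genes, and the shRNA 2 minus shRNA 1 points lie to the right for HAS3, HYAL2 and HYAL3 and to the left for CD44 and CEMIP.

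The wider hyaluronan system was taken as 6 lists with 56 genes, the members included, of which 32 passed the minimum level. The 30 that remain without HAS3 and CEMIP still hold CD44, HYAL2 and HYAL3, so the calls of these members, given above, are counted again here. Without HAS3 and CEMIP, 8 of 30 rose and 8 fell with shRNA 1, beside 9.35% and 10.5% of all genes, with a median log2 difference of 0.08 against -0.01 over all genes. With shRNA 2, 9 rose and 3 fell, beside 11.1% and 7.73%, with a median of 0.26 against 0.01. Between the shRNAs 11 were higher and 4 lower with shRNA 2, beside 13% and 9.13%, with a median of 0.32 against 0.03, and with glucose withdrawal none of 30 passed. Leaving out each library in turn kept 5 of the 16 calls with shRNA 1, 5 of the 12 with shRNA 2 and 6 of the 15 between the shRNAs in all 8 fits. The libraries whose omission ended a call are given beside each gene named.

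Among degrading enzymes, 7 of 9 were tested, and with shRNA 1 CEMIP2 and the CEMIP described above rose while HYAL2, HYAL3 and GUSB fell. Over all genes 9.35% rose and 10.5% fell with shRNA 1. GUSB, the lysosomal beta-glucuronidase, was at 11.8 and 13.0 FPKM in the 20 mM control, 7.14 and 6.59 with shRNA 1 and 10.6 and 9.57 with shRNA 2. Its log2 difference was -0.77 for shRNA 1 (SE 0.11, limma adjusted p = 0.00537). With shRNA 2 CEMIP2 was the only gene of the 7 that passed, beside 11.1% of all genes higher and 7.73% lower.

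Of 8 receptor genes only CD44 and HMMR, a hyaluronan-binding protein that also acts at the mitotic spindle, reached the minimum level. HMMR was at 16.4 and 17.1 FPKM in the 20 mM control, 11.5 and 14.6 at 0 mM, 6.44 and 5.83 with shRNA 1, and 12.3 and 14.4 with shRNA 2. It fell with shRNA 1 by 1.31 on the log2 scale (SE 0.13, limma adjusted p = 0.00182), opposite to CD44 in the same libraries. With shRNA 2 the difference was -0.31 (limma adjusted p = 0.159), and between the shRNAs it was 1.01 (limma adjusted p = 0.00338). LYVE1, STAB1, STAB2, LAYN, TLR2 and TLR4 were under the minimum.

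Of 18 genes of hyaluronan-binding matrix proteins 4 were tested. VCAN, which encodes the large proteoglycan versican, was at 6.17 and 4.90 FPKM in the 20 mM control, 6.85 and 10.3 at 0 mM, 6.85 and 7.59 with shRNA 1, and 16.1 and 23.8 with shRNA 2. It rose with shRNA 2 by 1.66 (SE 0.23, limma adjusted p = 0.00468). It was higher with shRNA 2 than with shRNA 1 by 1.33 (limma adjusted p = 0.00932), a call lost without either shRNA 1 library (0.0640 and 0.0515). HAPLN3, a link protein, was at 5.07 and 5.20 FPKM in the 20 mM control and 2.65 and 2.10 with shRNA 2. It fell by 0.87 (SE 0.16, limma adjusted p = 0.0111), a call lost without either control library (0.0692 and 0.0716). BCAN at 1.92 to 2.55 FPKM and HABP4 at 7.73 to 9.47 FPKM passed in no comparison.

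All 8 listed genes of UDP sugar precursor metabolism were tested, and none was called lower, beside 10.5% of all genes with shRNA 1 and 7.73% with shRNA 2. With shRNA 1, 2 of the 8 rose (9.35% of all genes), and with shRNA 2, 3 rose (11.1%). The 8 include AMDHD2, which acts on an intermediate in the opposite direction. Its mean with shRNA 1 was 0.656 times the control, a log2 difference of -0.49 (95% interval -0.92 to -0.07) that did not pass (limma adjusted p = 0.0999). UAP1, the last enzyme of UDP-N-acetylglucosamine synthesis, was at 8.91 and 9.74 FPKM in the 20 mM control, 9.94 and 9.55 at 0 mM, 19.7 and 17.9 with shRNA 1, and 30.5 and 29.7 with shRNA 2. It followed the order of HAS3, with log2 differences of 0.94 for shRNA 1 (SE 0.09, limma adjusted p = 0.00174), 1.59 for shRNA 2 (limma adjusted p = 0.000232) and 0.65 between them (limma adjusted p = 0.00421). PGM3, the enzyme before it, was at 4.21 and 4.63 FPKM in the control, 8.33 and 7.69 with shRNA 1 and 10.03 and 9.86 with shRNA 2. Its differences were 0.73 (limma adjusted p = 0.00831, but 0.0667 without the first control and 0.0656 without the first shRNA 1 library) and 1.02 (limma adjusted p = 0.00246). UGP2, which makes UDP-glucose, rose with shRNA 2 by 0.89 (SE 0.09, limma adjusted p = 0.00144). The remaining 5 genes (UGDH, GFPT1, GFPT2, GNPNAT1 and AMDHD2) did not pass with either shRNA.

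The 10 genes for CD44 partners, shedding enzymes and splicing factors divided in both directions, 4 up and 4 down with shRNA 1 (9.35% and 10.5% of all genes) and 4 up and 2 down with shRNA 2 (11.1% and 7.73% of all genes). MSN (moesin) was at 36.4 and 35.4 FPKM in the 20 mM control, 62.2 and 61.5 with shRNA 1 and 80.0 and 83.8 with shRNA 2. It rose by 0.77 (SE 0.09, limma adjusted p = 0.00251) and 1.17 (SE 0.09, limma adjusted p = 0.000502). The moesin difference between the shRNAs, 0.40 (limma adjusted p = 0.0198), was lost without either shRNA 1 library (0.0985 and 0.106) after quantile normalization (0.398) and with only those 2 groups in the fit (0.0861).

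EZR (ezrin) had the opposite direction, at 629.0 and 629.9 FPKM in the 20 mM control, 394 and 382 with shRNA 1 and 509 and 458 with shRNA 2. Its shRNA 1 difference of -0.70 (limma adjusted p = 0.00638) was lost without the first control (0.0584), the second control (0.0565) or the second shRNA 1 library (0.0523). Its shRNA 2 difference of -0.38 (limma adjusted p = 0.0468) was lost without any library other than the first of shRNA 2 (0.0869 to 0.203). RDX (radixin) was at 10.2 and 11.1 FPKM in the control, 17.2 and 18.1 with shRNA 1 and 17.7 and 23.9 with shRNA 2. It rose by 0.68 with shRNA 1 (limma adjusted p = 0.0231), lost without any of the 4 libraries compared (0.0876 to 0.130), and by 0.89 with shRNA 2 (limma adjusted p = 0.00876), lost without the first control library (0.0690). ESRP1, an epithelial splicing regulator of CD44, was at 22.3 and 22.4 FPKM in the control, 38.5 and 41.7 with shRNA 1 and 26.3 and 29.2 with shRNA 2. It rose with shRNA 1 by 0.81 (SE 0.13, limma adjusted p = 0.00837), lost without the first control (0.0614), the second control (0.0582) or the second shRNA 1 library (0.0632). ESRP2, the other splicing factor listed, went the opposite way, with a mean of 13.9 FPKM in the control and 10.4 with shRNA 1. It fell with shRNA 1 by 0.39 on the log2 scale (SE 0.09, limma adjusted p = 0.0307). This ESRP2 call was lost without any library other than those of shRNA 2, with differences of -0.45 to -0.33 over all omissions. Some calls in these lists also ended under other settings. With only the 2 groups compared in the fit, CEMIP2, RDX and EZR did not pass with shRNA 2 (adjusted p 0.0653, 0.0623 and 0.193). With no minimum level, EZR and RDX did not pass with shRNA 1 (0.0640 and 0.0573), nor EZR with shRNA 2 (0.282).

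**Figure D4:**
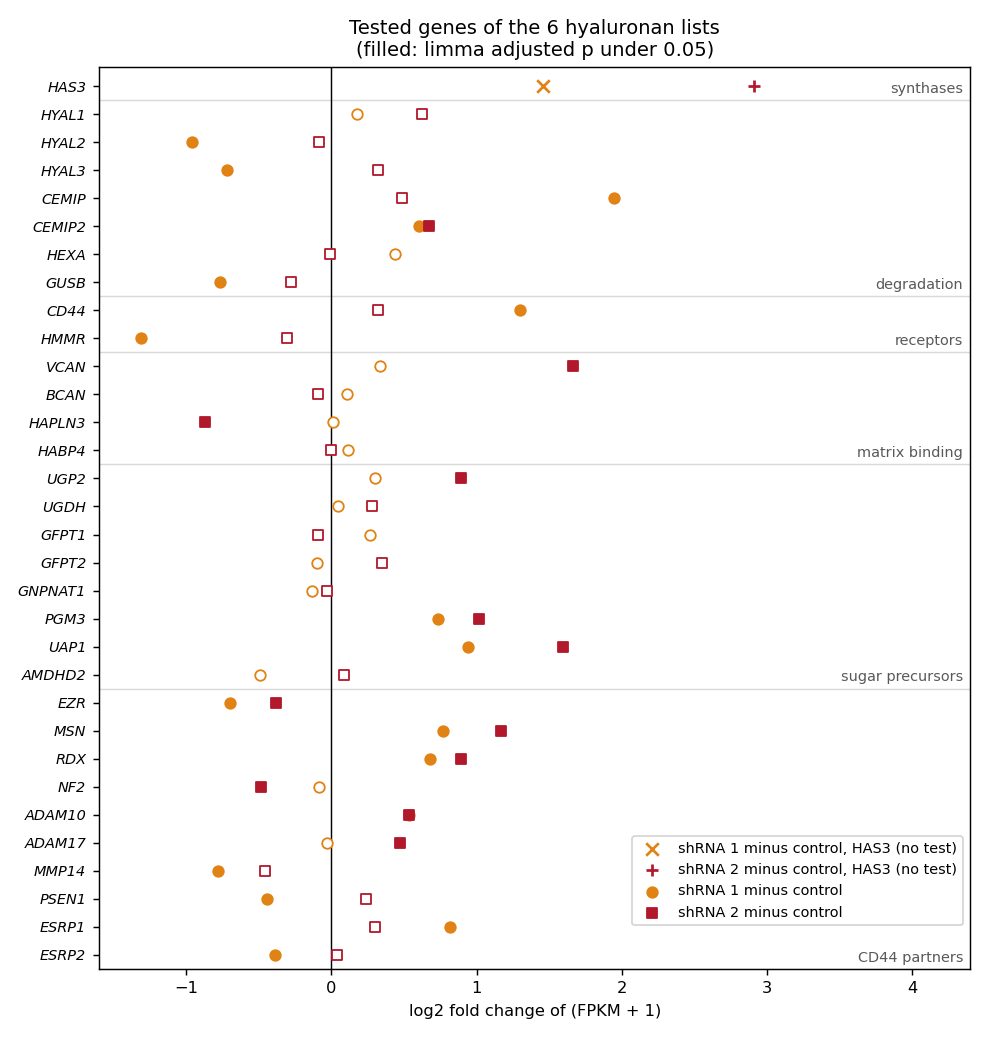
Log2 fold change of (FPKM + 1) against the 20 mM control (x axis) for the 32 tested genes of the 6 lists (y axis), circles for shRNA 1 and squares for shRNA 2, filled where the limma adjusted p is under 0.05. HAS3 is drawn as crosses because it was not tested, and for ADAM10 the square covers the circle. UAP1, PGM3, MSN and RDX lie to the right of 0 with both shRNAs, and EZR lies to the left with both. CD44, CEMIP, HYAL2 and HMMR each lie further from 0 with shRNA 1 than with shRNA 2.

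The genes most like each member were ranked over 11445 protein-coding genes by the root mean square difference of centred log2(FPKM + 1) over the 8 libraries, as a description of these libraries. Nearest to HAS3 was EHF, an epithelial ETS transcription factor, with a difference of 0.260 and group means of 3.19, 3.77, 12.4 and 23.3 FPKM in the 20 mM control, 0 mM control, shRNA 1 and shRNA 2 libraries. MAOB (0.264), ITPK1 (0.300), RNF125 (0.329) and SEMA4B (0.335) followed. CD44 was nearest to IQANK1 (0.0877), DRAM1 (0.0980) and FGF19 (0.102), and CEMIP to ADGRF1 (0.169), JAG1 (0.169) and AVPR2 (0.184). HYAL2 was nearest to GABARAPL1 (0.0908), FANCE (0.101) and ADCK2 (0.115), and HYAL3 to FKBP1B (0.0786) and MED8 (0.0805). Among the members themselves the closest pair was HYAL2 with HYAL3 (0.313), then CD44 with CEMIP (0.322). Many other genes were closer to each: HYAL3 had place 1220 of 11445 in the ranking for HYAL2, and HYAL2 place 2132 in that for HYAL3. CD44 had place 37 in the ranking for CEMIP, and CEMIP place 517 in that for CD44.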

How the data were processed

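RNA of the HCT116 libraries was primed with random hexamers, per the labels' protocols. The submitters' processing notes name DESeq2 1.20.0, featureCounts 1.5.0-p3 and HISAT2 2.0.5 with no role for each. The values are FPKM per gene and library as deposited by the authors. The library size they divided by and the strand setting are not given in the sources used here. Gene starts, ends and exon lengths equal GENCODE 29 on GRCh38 for 58735 of 58735 genes.

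FPKM times length gave whole reads for 100% of values (tolerance 0.001), 14252316 to 19975449 per library. Intervals are exact 95% Poisson intervals of these reads, and 0 reads allow up to 3 reads. Both cover counting error only. Genes at 1 FPKM or more in 2 or more libraries (16239) were fitted as log2(FPKM + 1) with 4 group means in limma 3.58.1 (R 4.3.3, trended empirical Bayes). P-values were adjusted by Benjamini-Hochberg over all of them, with calls at an adjusted p under 0.05. The fits were also run on simulated counts with the same spread setting for every gene. That setting was not taken from these libraries, so the run says nothing of how reliable the calls here are.

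The members and lists were chosen with earlier results of these data known. The 6 members were always named. From each list came up to 4 called genes per comparison with the smallest p, and every measured gene of a list with 5 or fewer. The 5 genes nearest to HAS3 and the 3 nearest to each other tested member were also named. Some genes that this rule covers are not reported here. Alternatives were log2(FPKM + 0.1), no minimum, quantile normalization, only the 2 groups compared, a replicate block, each library left out, and, chosen after seeing the data, limma voom on the recovered reads.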

Additional observations from a re-analysis of the deposited data

Results flagged for a closer look

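The effects of shRNA 1 and shRNA 2, each against the same 20 mM control, differed by the limma test of shRNA 2 minus shRNA 1 for 4 genes. Over all 16239 genes tested 22.2% passed in this comparison, and the members were chosen with earlier results of these data known. On the log2(FPKM + 1) scale the difference was 1.039 for HYAL3 and 0.8732 for HYAL2, both higher with shRNA 2. For CD44 it was -0.977 and for CEMIP -1.454, both lower with shRNA 2. Each direction was seen in both libraries of shRNA 2 against both of shRNA 1, and over all genes the libraries did not overlap for 60%. CEMIP met the minimum level only through the shRNA libraries. The HYAL2 call was lost without the first library of either shRNA and with only those 2 groups in the fit.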

How the results depend on the processing

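Of 840 results for single genes of the hyaluronan lists and MAPKAPK2 under an alternative, 714 kept their direction and side of the threshold, 114 lost the call, 5 gained it and 7 changed sign. The 840 include HAS3 with the shRNAs, which was chosen on those values, and MAPKAPK2, the target of the shRNAs. They also include CEMIP, which met the minimum only through the shRNA libraries, so the counts are a description only. The 7 that changed sign were all uncalled differences near 0. For glucose these were HAS3 (-0.0874 to 0.154 with each library left out), HYAL2 (-0.0206 to 0.0959), and CEMIP (-0.0275 to 0.0254, and 0.00638 by voom), and for shRNA 2 HYAL2 (-0.29 to 0.12). The gained calls include CD44 with shRNA 2 under a replicate block (adjusted p = 0.0497). The number of genes called for glucose was 0, but 6 with no minimum level, 28 by voom and 0 to 1 with each library left out. It was 942 to 4054 for shRNA 1, 1015 to 3026 for shRNA 2 and 1335 to 3473 between the shRNAs with each library left out, against 3222, 3055 and 3602. With only the 2 groups compared it was 961 for shRNA 2 and 1136 between the shRNAs, where fewer libraries enter the fit. Deviations of libraries with the same replicate number correlated weakly or not at all between groups (r -0.0295 to 0.179 over 6 pairs of groups). With 2 libraries per group this cannot exclude a batch that some of them share. The replicate block gave 0, 3470, 3332 and 3806 calls. The planned count test was not run, because the deposited unit is FPKM. HAS2 and HAS1 were too low to test, and HYAL3 rests on 72 to 248 reads per library.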
